A study of Homo sapiens with 2 samples.

Results

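The genes described here encode the factors that start, carry on and end protein synthesis in the cytosol. They were taken from the table of all genes as the protein-coding rows whose symbols begin with EIF1 to EIF6, EEF1, EEF2, ETF1 or GSPT, without the eIF2 kinases and EIF1AY. This gave 63 genes of 57773, and 58 of them had at least 20 reads over both libraries. The samples were spheroids grown from MDA-MB-231, an established human cell line of triple-negative breast cancer, whose culture medium held 10% serum. One group was left as Control and the other received TGS24, an agent for which the labels give a code name without dose or time. Each group held 1 library. What follows is therefore a comparison of single libraries, with no replicate check and no p-value. Where a gene is given with a pair of reads, Control comes first and TGS24 after it.

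The regular rows of the table held 8570632 reads for Control and 16145121 for TGS24, and protein-coding genes held 41.3% and 54.1% of them. Of the genes that mark MDA-MB-231 cells, VIM and CD44 were in irregular rows that were left out, and 6 of the 8 others were at least 2-fold lower in TGS24, against 6.44% of all genes tested, with a summed 5915 and 5043 reads. With ratios centred within classes of GC content 3 of the 8 were lower, against 5.98% of all genes. None of the 4 measured luminal and hormone receptor genes passed in either direction, on a summed 160 and 197 reads for 7 genes. The leukocyte list of 6 genes had 77 and 157 reads, with CD68 at 0 in both libraries. The red cell list of 7 genes had 5911 and 12423 reads, mainly HBB with 4860 and 10453. The part of these lists in the results below was not tested.

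Translation begins when eIF2, loaded with GTP and the initiator tRNA, joins the small ribosomal subunit together with eIF1, eIF1A, eIF3 and eIF5. The eIF4F complex binds the messenger RNA cap through eIF4E, bridges to the ribosome through eIF4G and unwinds the leader through the helicase eIF4A. After eIF5B joins the large subunit, eEF1A brings each aminoacyl-tRNA, eEF2 moves the ribosome along, and the release factors eRF1 and eRF3, from ETF1 and GSPT1, free the finished chain. Many messenger RNAs of this machinery begin with a C followed by a run of pyrimidines, the 5' terminal oligopyrimidine (TOP) start, through which mTORC1 and LARP1 control their translation.

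The start sites of such genes are shown because members with the same kind of start stood well above and well below 0 in their ratio between libraries. In RefSeq windows on GRCh38.p14, a start was counted where the base at the annotated start is C and is the beginning of at least 5 pyrimidines in a row on the gene's strand. Of 53 members with a window 13 had such a start (24.5%), against 5.14% of the 27305 genes in the table and 4.07% of its 35116 windows. The lines below give 10 bases before and 20 bases from the annotated start, 5' to 3', from the highest to the lowest ratio of TGS24 over Control, with the pyrimidine run in capitals.
EIF2S3L: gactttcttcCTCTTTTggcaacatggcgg
EIF2S3: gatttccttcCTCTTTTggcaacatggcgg
EIF4A2: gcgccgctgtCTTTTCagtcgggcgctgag
EIF3M: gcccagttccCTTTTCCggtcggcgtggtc
EEF1A1: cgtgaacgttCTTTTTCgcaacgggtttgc
EIF4B: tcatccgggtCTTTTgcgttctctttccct
EEF2: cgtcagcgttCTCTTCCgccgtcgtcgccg
EIF3D: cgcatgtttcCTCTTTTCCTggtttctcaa
EEF1B2: ctcttcgggtCCTTTTTCCTCTCTTCagcg
EIF3K: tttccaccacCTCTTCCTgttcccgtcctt

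Each window lies across the annotated start of the gene's transcript, in RefSeq on GRCh38.p14. On the plus strand lie those of EIF2S3L (chr12:10505880-10505909), EIF2S3 (chrX:24054946-24054975), EIF4A2 (chr3:186783567-186783596), EIF3M (chr11:32583821-32583850), EIF4B (chr12:53006446-53006475), EEF1B2 (chr2:206159885-206159914) and EIF3K (chr19:38619178-38619207). On the minus strand lie those of EEF1A1 (chr6:73521013-73521042), EEF2 (chr19:3985444-3985473) and EIF3D (chr22:36529147-36529176). EIF2S3L is a copy of EIF2S3 on another chromosome, and the same 7-base run begins at the annotated start of both. EIF2A, EIF3F and EIF2D, not shown, also had such a start.

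The messenger RNAs of the translation factors made up 2.17% of all reads in Control and 4.03% in TGS24. These shares depend on the other RNAs, as RN7SL1 alone held 41.1% of reads in Control and 31.6% in TGS24. They also rest on few genes. EEF1A1 held 38.4% of the member reads in Control and 34.1% in TGS24, and EIF4G2 held 20.9% and 29.2%. The ratio used throughout is the log2 of TGS24 over Control after scaling the libraries to each other with TMM factors, with a prior count of 2. Its 95% exact interval covers counting error only. In bulk samples, fewer cells of a type and less RNA per cell cannot be told apart. Of the 58 genes measured, 15 were at least 2-fold higher in TGS24 with an interval that leaves out 0, which is 25.9% of them, against 12.7% of all 10079 genes tested and 12.9% of the 8936 protein-coding ones. A single member, EIF4A1, was at least 2-fold lower, which is 1.72%, against 6.44% of all genes and 6.09% of protein-coding genes. The intervals of 29 members lay above 0, those of 14 below 0, and 15 held 0. The median log2 ratio of the members was 0.35, against -0.004 for all genes tested.

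The higher share went with read depth. Among the 29 members with at least 1000 reads, 12 were at least 2-fold higher (41.4%) and 0 lower, and their median was 0.81. Among all 1904 protein-coding genes of that depth 28.5% were higher and 1.84% lower, and the median was 0.41. Of the 29 measured members with fewer reads 3 were higher, EEF2K among them, and 1 lower, and their median was -0.17. A gene higher in the deeper TGS24 library has more reads for that reason, so depth classes are not independent of the ratio.

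**Figure D1:**
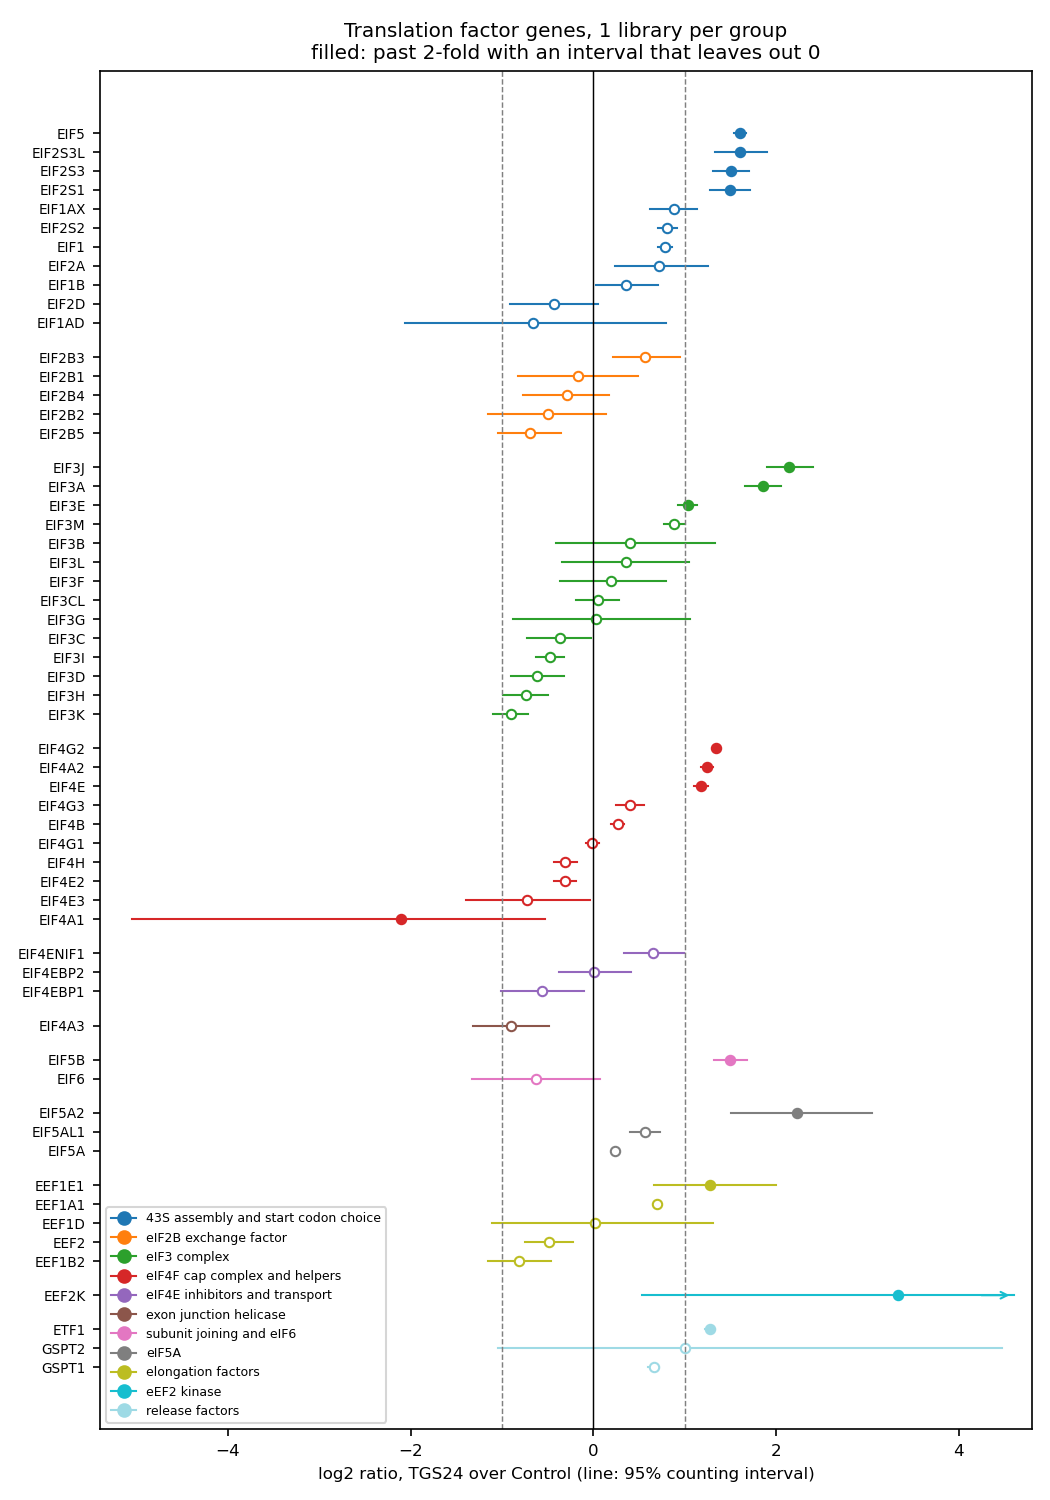
Log2 ratio of TGS24 over Control for the 58 measured translation factor genes, grouped by role, with points for the ratio, lines for the 95% counting interval and dashed lines at 2-fold. Filled points are the 15 higher genes and EIF4A1, and the arrow on EEF2K marks an interval without an upper end, as Control had 0 reads.

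Genes of the preinitiation complex and of start codon choice were on the higher side. EIF5, which makes eIF2 hydrolyse its GTP at the start codon, had 4195 and 24546 reads and was 3.04-fold higher, with a log2 ratio of 1.60 and an interval from 1.54 to 1.67. The eIF2 alpha subunit EIF2S1, the site of the stress phosphorylation that slows initiation, had 413 and 2238 reads, a log2 ratio of 1.49 (interval 1.27 to 1.71). The gamma subunit EIF2S3, which binds GTP and the initiator tRNA, had 492 and 2687 reads, a log2 ratio of 1.50 (interval 1.31 to 1.71). These 3 genes and EIF2S3L, at a log2 ratio of 1.60 with 240 and 1407 reads, were the members of this group past the threshold.

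The beta subunit EIF2S2 was under the 2-fold threshold, at a log2 ratio of 0.81 (interval 0.70 to 0.92) with 1883 and 6355 reads. Its interval lies below those of EIF2S1 and EIF2S3, whose own intervals overlap. Once ratios were centred within 20 classes of transcript GC content, described below, that order did not hold for EIF2S1. There EIF2S2 stood at 0.67 (interval 0.57 to 0.78) and EIF2S1 at 0.63 (interval 0.41 to 0.85). The interval of EIF2S3, at 1.01 (0.82 to 1.22), still lay above that of EIF2S2. EIF1, which guards the start codon, had 3471 and 11497 reads and a log2 ratio of 0.78, and EIF1AX, which works beside it, had 323 and 1144 reads and 0.88. EIF1B, a paralogue of EIF1, stood at 0.36, and EIF2A, an alternative initiator tRNA factor, at 0.72. EIF2D and EIF1AD, at -0.43 and -0.66, had intervals that held 0. Of the 11 genes in this group 4 were higher (36.4%, against 12.7% of all genes) and 0 lower, and the median was 0.81. There were 9 intervals above 0, and 6 after GC centring, which put EIF1AX at 0.02, EIF2A at -0.14 and EIF1B at -0.30.

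The eIF2B genes, which encode the exchange factor that reloads eIF2 with GTP, did not share that direction. None of the 5 subunits passed the threshold and their median was -0.29. EIF2B3 had 172 and 492 reads and a log2 ratio of 0.57 (interval 0.21 to 0.94). EIF2B5, the catalytic epsilon subunit, had 262 and 310 reads and a log2 ratio of -0.70 (interval -1.05 to -0.36). The intervals of these 2 subunits do not overlap, and those of EIF2B1, EIF2B2 and EIF2B4 held 0.

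The 14 eIF3 genes ranged from -0.91 to 2.14 around a median of 0.12, so subunits of 1 complex stood far apart. The complex keeps the ribosomal subunits apart and recruits the messenger RNA. EIF3J, a loosely bound subunit at the decoding site, had 304 and 2591 reads and was 4.41-fold higher, with a log2 ratio of 2.14 and an interval from 1.90 to 2.40. EIF3A, the largest subunit and scaffold of the complex, had 483 and 3365 reads and was 3.61-fold higher, with a log2 ratio of 1.85 and an interval from 1.66 to 2.05. EIF3E had 1908 and 7521 reads and a log2 ratio of 1.03 (interval 0.93 to 1.14), so it stood right at the threshold. EIF3M, another subunit, had 1564 and 5567 reads and a log2 ratio of 0.89, just under.

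At the other end, EIF3K had 873 and 895 reads and a log2 ratio of -0.91 (interval -1.10 to -0.72). EIF3H had 513 and 589 reads and -0.74, EIF3D, a subunit that can itself bind the cap, had 364 and 457 reads and -0.61, and EIF3I had 1209 and 1675 reads and -0.47. All 4 intervals lay below 0, with no gene past 2-fold. These subunits therefore gained fewer reads than the library as a whole, while EIF3A and EIF3J gained far more. EIF3B, EIF3F, EIF3G and EIF3L, on 30 to 76 Control reads, had intervals that held 0, between -0.88 and 1.33. Of the 8 subunits of the PCI and MPN octamer, which EIF3A organises, 2 were higher and 0 lower, with 3 intervals above and 3 below 0. Of the 5 subunits outside it 1 was higher and 0 lower. Both counts stand against 12.7% higher and 6.44% lower among all genes tested.

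Cap-binding genes divided between paralogues. EIF4E, the cap-binding protein, had 3585 and 15616 reads, a log2 ratio of 1.18 (interval 1.10 to 1.25). EIF4E2, a related cap-binding protein of translational repression, had 1750 and 2712 reads and -0.31 (interval -0.44 to -0.19). EIF4G2, which lacks the eIF4E-binding part of eIF4G and supports initiation without eIF4E, had 39000 and 190435 reads and was 2.54-fold higher, with a log2 ratio of 1.34 and an interval from 1.32 to 1.36. The main scaffold EIF4G1 had 4787 and 9153 reads and a log2 ratio of -0.01 (interval -0.08 to 0.06), and EIF4G3 stood at 0.40. After GC centring EIF4G2 stood at 1.03, above EIF4G1 at 0.37 (interval 0.30 to 0.44) and EIF4G3 at 0.29 (interval 0.14 to 0.44), whose intervals then overlapped in the opposite order.

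The helicase EIF4A2 had 4798 and 21830 reads, a log2 ratio of 1.24 (interval 1.18 to 1.30). Its paralogue EIF4A1, known as the abundant form in dividing cells, had 18 and 6 reads and was 4.32-fold lower, with a log2 ratio of -2.11 (wide interval -5.05 to -0.53). In GENCODE v29, 48.6% of the EIF4A1 exon length is shared with other genes, the read-through gene SENP3-EIF4A1 among them. No row of the data carries the identifier of SENP3-EIF4A1, and the overlapping rows SNORA67 and SNORD10 had 0 reads in both libraries. The sources used here do not give how reads on shared exons were counted, and their part in the EIF4A1 level was not tested. EIF4B and EIF4H, which help eIF4A unwind, stood at 0.26 and -0.31, and EIF4E3 at -0.72 on 72 and 83 reads. The 10 measured genes had a median of 0.13, 3 of them higher and 1 lower. Of all genes tested 12.7% were higher and 6.44% lower. EIF4A1, the lower member, no longer passed the threshold with the reads of its pseudogene rows added, at -0.70, as described below.

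Inhibitors of eIF4E did not pass the threshold. EIF4EBP1, the mTORC1 substrate that blocks eIF4E, had 150 and 195 reads and a log2 ratio of -0.56 (interval -1.01 to -0.11). After GC centring EIF4EBP1 stood at -0.17 and its interval, -0.61 to 0.29, held 0. EIF4EBP2 had 166 and 322 reads and 0.01, and EIF4ENIF1, the transporter that takes eIF4E to the nucleus and P-bodies, had 210 and 637 reads and 0.65 (interval 0.34 to 0.99). EIF4A3, a helicase of the exon junction complex despite its name, had 198 and 203 reads and -0.90 (interval -1.32 to -0.49).

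**Figure D2:**
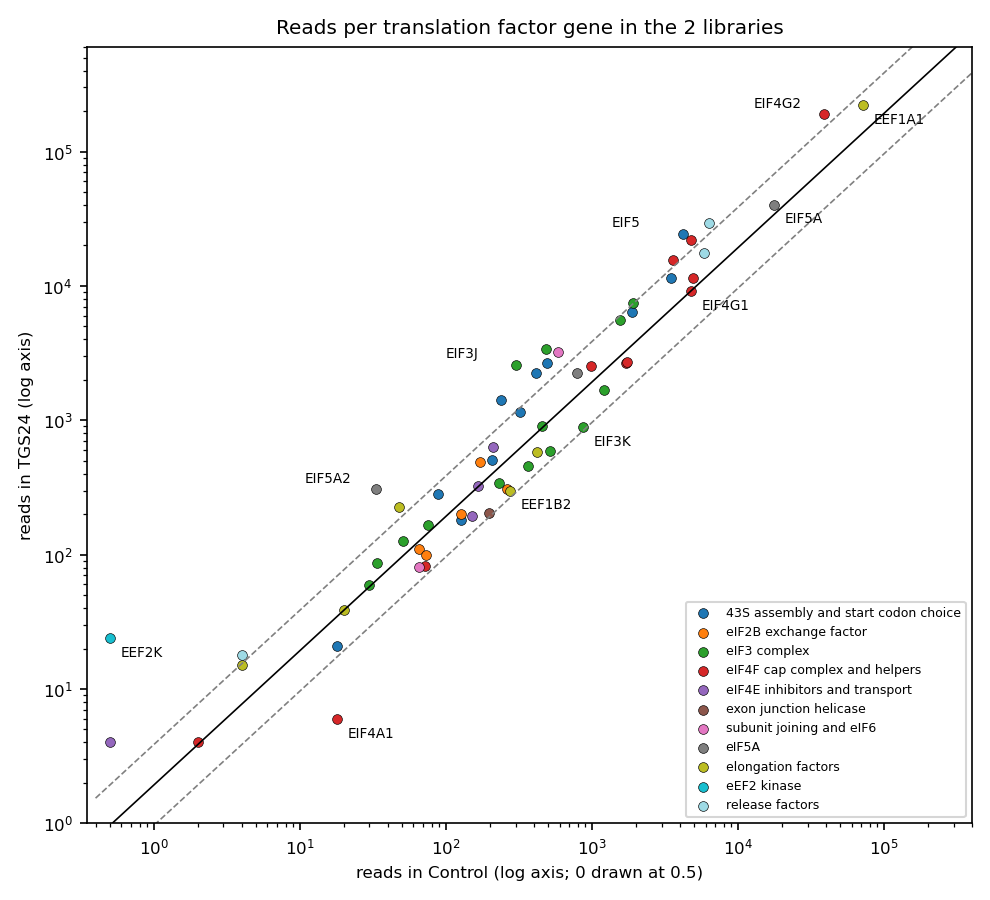
Reads of each translation factor gene in Control and in TGS24, both on log axes, coloured by role. The solid line marks an equal level after scaling and the dashed lines 2-fold. Of the 29 genes with at least 1000 reads, 22 had intervals above 0 and 5 below. At least 2-fold higher were 12, among them EIF3J at 304 and 2591 and EIF4G2 at 39000 and 190435. EIF4G1, at 4787 and 9153, lies at the solid line.

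The subunit-joining GTPase EIF5B had 590 and 3210 reads and was 2.82-fold higher, with a log2 ratio of 1.50 and an interval from 1.32 to 1.68. EIF6, which holds the large subunit apart until it is mature, had 66 and 81 reads and -0.63 (interval -1.33 to 0.07). EIF5A, the hypusine-bearing factor that helps ribosomes past proline runs, had 17707 and 40277 reads and a log2 ratio of 0.24 (interval 0.20 to 0.28). Its paralogue EIF5A2, which lies in a region amplified in several tumours, had 33 and 308 reads and was 4.69-fold higher, with a log2 ratio of 2.23 and an interval from 1.51 to 3.05. The 2 paralogues differed in level by far in each library, at 734 and 886 RPKM for EIF5A and 0.688 and 3.41 RPKM for EIF5A2. RPKM, reads per kilobase of exon scaled to the library's reads, was computed from the recovered reads with the union of a gene's GENCODE v29 exons as its length.

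Elongation factors also stood on both sides of 0. EEF1A1 was the member with the most reads, 71469 and 222350, at 1402 and 2315 RPKM. Its log2 ratio was 0.69 (interval 0.67 to 0.71), under the threshold. EEF2 had 419 and 576 reads, 12.1 and 8.86 RPKM, and a log2 ratio of -0.48 (interval -0.75 to -0.23). EEF1B2, an exchange factor that reloads eEF1A, had 274 and 299 reads and -0.81 (interval -1.16 to -0.47). EEF1A1 was thus above 0 and EEF1B2 below. After GC centring both kept their side, at 0.56 and -0.70, while EEF2 stood at -0.13 with an interval, -0.40 to 0.13, that held 0.

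EEF1E1, a scaffold of the multi-synthetase complex, had 48 and 227 reads and a log2 ratio of 1.27 (lower end of its interval 0.66), and was the single elongation member past the threshold. EEF1D had 20 and 39 reads and 0.02, and pseudogene rows named after it, described below, held 62 and 61 reads. With those added EEF1D stood at -0.65 (interval -1.28 to -0.03). EEF1A2, the form of muscle and nerve, had 4 and 15 reads and was not tested. EEF1G had 0 reads in both libraries, and 99.9% of its exon length is shared with another gene in GENCODE v29. EEF2K, the kinase that inactivates eEF2, had 0 and 24 reads. It passed the minimum of 20 reads through TGS24 alone. Set against a floor of 3 reads per library it was at least 4.15-fold higher, which takes the 24 TGS24 reads as exact. The exact interval, which takes in both, reached down to 0.53 on the log2 scale.

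The release factor ETF1, which reads the stop codons, had 6333 and 29557 reads and was 2.42-fold higher, with a log2 ratio of 1.28 and an interval from 1.22 to 1.33. Its partner GTPase GSPT1 had 5817 and 17694 reads and 0.66 (interval 0.60 to 0.72). Both intervals lay above 0 and did not overlap, and after GC centring ETF1 stood at 0.79 and the GSPT1 interval, -0.06 to 0.07, held 0. GSPT2, a copy of GSPT1 without introns, had 4 and 18 reads. Members with fewer than 20 reads, beside EEF1A2 and EEF1G, were EIF4E1B with 2 and 4 reads, EIF4EBP3 with 0 and 4, and the read-through row EEF1E1-BLOC1S5 with 0 in both.

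Among the genes the authors called, in their deposited table, are the members EIF3J, EIF5A2 and EIF4A1. This was not set against the share of all genes called there. The authors' deposited table gives EIF3J a log2 ratio of 2.15 and EIF5A2 one of 2.29, both as higher. It gives EIF4A1 one of -2.52, as lower, for a gene with 18 and 6 recovered reads.

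The start sites printed above did not sort the genes by ratio. The 13 measured members with a TOP start had ratios from -0.91 for EIF3K to 1.60 for EIF2S3L, with a median of 0.26, 3 higher and 0 lower. The 3 higher were EIF2S3, its copy EIF2S3L and EIF4A2. The 36 measured members with a window and no such start had a median of 0.40, 10 higher and 1 lower. Among all tested protein-coding genes the median was -0.10 for 551 genes with the start, of which 63 were higher and 41 lower. It was 0.02 for 6401 without the start, of which 878 were higher and 381 lower. Of all protein-coding genes tested 12.9% were higher and 6.09% lower. Of the 9 members listed as known TOP messenger RNAs 8 were measured, and the list median was 0.10. EIF3E alone of them was higher (12.5%, near the 12.7% of all genes). Annotated starts can differ from the starts used in these cells.

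Many translation factor genes have processed pseudogenes, inserted copies of their messenger RNA, and 111 pseudogene rows carry the name of a member. Of these 81 had a read in either library and 46 had at least 20. They held 54658 and 153547 reads, that is 21.5% and 27.8% of the reads in all pseudogene rows. The 38 rows named after EEF1A1 held 51038 and 144216 of them. They took 41.7% of the reads of EEF1A1 and its copies in Control, with an exact binomial interval from 41.3% to 42.1%, and 39.3% in TGS24, from 39.1% to 39.6%.

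EEF1A1P5 alone had 18813 and 59568 reads and a log2 ratio of 0.72, beside 0.69 for EEF1A1. Of its 150-base windows 51.6% occur letter for letter in an EEF1A1 transcript, so many reads of that length cannot tell the copy from the gene. EEF1A1P12 had 11065 and 31256 reads and 0.55, and EEF1A1P13 had 9977 and 25734 reads and 0.42, and neither has a 150-base window found in EEF1A1. Over the 14 copies with at least 200 reads the log2 ratio ran from -0.02 to 0.83. With the reads of all its copies added, EEF1A1 stood at 0.64, still under the threshold.

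**Figure D3:**
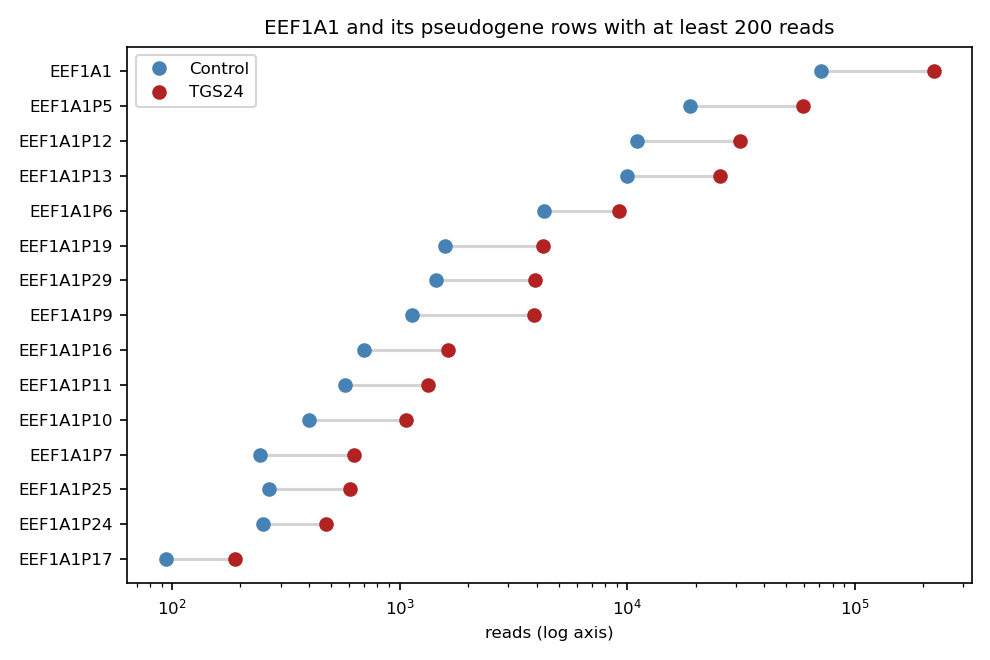
Reads of EEF1A1 and of its 14 pseudogene rows with at least 200 reads in Control (blue) and TGS24 (red), on a log axis. The reads fall from 71469 and 222350 for the gene to 94 and 190 for EEF1A1P17, and each row has more reads in the deeper TGS24 library.

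For EIF4A1 the copies held nearly all the reads. Its pseudogene rows had 471 and 572 reads, mostly EIF4A1P10 with 437 and 510, against 18 and 6 for the gene. With them added the log2 ratio of EIF4A1 was -0.70 and the gene no longer passed the threshold. The copies of EIF2S2 had 1760 and 6150 reads, close to the 1883 and 6355 of the gene, with a log2 ratio of 0.86 beside 0.81. Of the 150-base windows of EIF2S2P4, the main one, 27.4% occur in EIF2S2. Each of the 15 higher members stayed higher with the reads of its pseudogene rows added.

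Coding copies raise the same limit. Of the 150-base windows of EIF3CL 95.3% occur in EIF3C, and the pair had 458 and 910 reads and 231 and 344 reads, with log2 ratios of 0.04 and -0.37 that are uncertain for each gene. For EIF2S3L 3.66% of windows occur in EIF2S3, and for EIF5AL1 1.16% occur in EIF5A. EIF5AL1 had 795 and 2263 reads and a log2 ratio of 0.56. No 150-base window of EIF5A2 occurs in EIF5A, none of EIF4A2 in EIF4A1, and none of GSPT2 in GSPT1.

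The ratios of the members went with the GC content of their transcripts. Over the 58 measured members, Spearman's rho between log2 ratio and median transcript GC was -0.68 and Pearson's r was -0.60. The points are genes read in the same 2 libraries, so the values describe these libraries. In the other tested protein-coding genes these were -0.46 and -0.43 over 8792 genes. With at least 100 reads, where counting error is smaller, rho was -0.75 over 52 members and -0.70 over 4956 protein-coding genes, members included. The GC content of the coding sequence alone gave -0.62 over the 58 members, and that of its codons' last positions -0.68. After centring within GC classes rho with median transcript GC was -0.32 in the members and 0.03 in the other protein-coding genes. With at least 100 reads it was -0.38 in the members and -0.18 in the protein-coding genes, members included. Centring thus left a part of the trend in both at that depth.

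Of the 19 members lowest in GC, from 36.9% to 43.9%, 13 were higher and 0 lower, and their median was 1.27. Of all 2746 genes tested in that GC range 31.4% were higher and 2.48% lower, and the median was 0.67. Among the 19 highest in GC, from 51.7% to 62.3%, EEF2K alone was higher, 0 were lower, and the median was -0.43. Of all 3226 genes tested in that range 1.05% were higher and 9.83% lower, and the median was -0.34. EIF3J lay lowest of all members in GC at 36.9%, and EIF3A, EIF5A2 and EIF5 lay between 42.7% and 43.9%. EIF3K, at 54.9%, and EIF4EBP1, at 62.0%, stood on the other side. The part of GC content in these differences was not tested beyond centring.

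**Figure D4:**
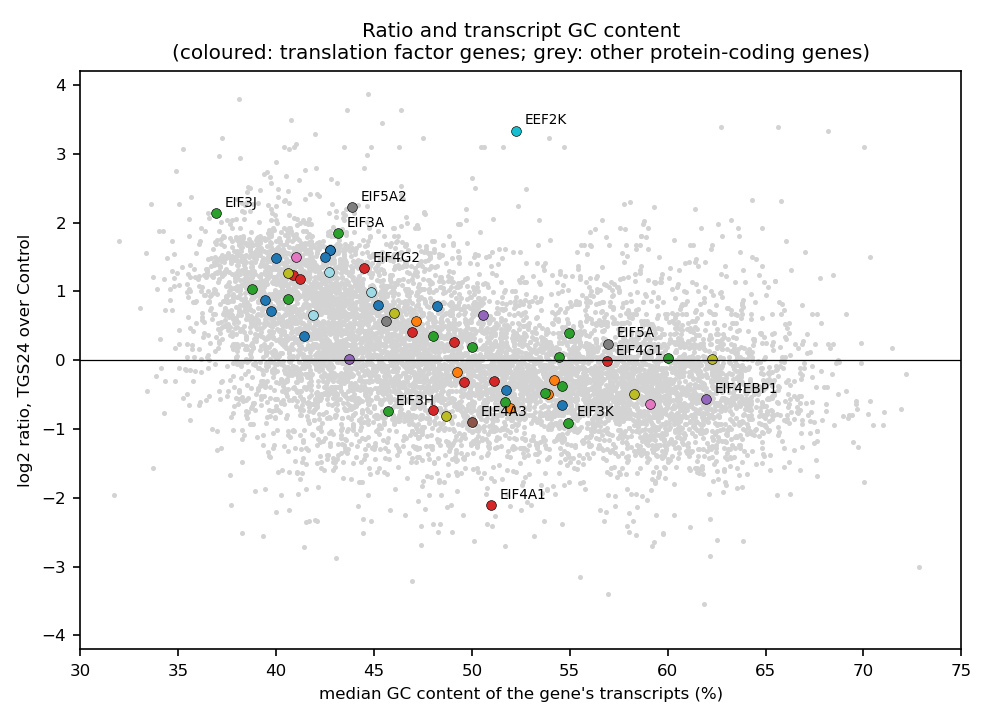
Log2 ratio of TGS24 over Control against the median GC content of a gene's transcripts in percent, for translation factor genes (coloured by role) and other tested protein-coding genes (grey). The members run from EIF3J at 36.9% GC and 2.14 to EIF4EBP1 at 62.0% and -0.56, in the same direction as the grey cloud, with EEF2K above the other members and EIF4A1 below.

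When ratios were centred within 20 classes of GC content, 8 members were at least 2-fold higher, against 5.48% of all 9959 genes with a GC value, and 1 was lower, against 5.98%. These 8 were EIF5A2 at 1.82, EIF3A at 1.44, EIF3J at 1.20, EIF5 and EIF2S3L each at 1.11, EIF4G2 at 1.03, EIF2S3 at 1.01 and EEF2K. The last had 0 Control reads and passed the read minimum through TGS24 alone. EIF2S1 at 0.63, EIF5B at 0.72, ETF1 at 0.79, EEF1E1 at 0.50, EIF4A2 at 0.46, EIF4E at 0.40 and EIF3E at 0.17 were then under the threshold. EIF4A1 stayed lower, at -1.92. The member median was 0.32 after centring.

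Other genes of the pathway, from lists written with earlier results of these data known, are given here by role. Of 7 scanning helicases and recycling factors 5 were higher (71.4%, against 12.7% of all genes), with a median of 1.28. The helicase DDX3X, which opens structured leaders, had 9805 and 69155 reads and a log2 ratio of 1.87. The ribosome recycling ATPase ABCE1 had 1226 and 7566 reads and 1.68. The scanning helicase DHX29 stood at 1.50, the ribosome rescue GTPase HBS1L at 1.28 and the reinitiation factor DENR at 1.13. After GC centring DDX3X alone of these stayed past the threshold, at 1.22. Of 6 measured poly(A)-binding proteins and partners 2 were higher (33.3%, against 12.7% of all genes), and neither after GC centring. These were PABPC1, with 1318 and 5419 reads and 1.09, and PABPC3, a copy of it without introns, with 68 and 276 reads and 1.06.

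Of 11 measured genes of mTORC1, S6 kinase and MNK signalling 1 was higher (9.09%, near the 12.7% of all genes), the S6 kinase gene RPS6KB1 with 860 and 4114 reads and a log2 ratio of 1.31, and the median was -0.51. MTOR itself had 1211 and 2088 reads and -0.16. Of the 4 eIF2 kinases 1 was higher (25.0%, against 12.7% of all genes). This was EIF2AK4 (GCN2), which senses uncharged tRNA, with 53 and 224 reads and a log2 ratio of 1.11. EIF2AK3 (PERK) had 6 and 22 reads. Of 4 measured genes of the eIF2 phosphatase and ATF4 axis 1 was lower (25.0%, against 6.44% of all genes). This was ATF5, with 44 and 32 reads and -1.34, and ATF4 had 3622 and 6468 reads and -0.11. RPS6KB1, EIF2AK4 and ATF5 were each under the threshold after GC centring, where the phosphatase subunit PPP1R15B was past it, at -1.03.

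Of 5 measured enzymes that modify eIF5A and eEF2 the diphthamide enzyme gene DPH5 was higher, with 111 and 520 reads and 1.27, or 0.78 after GC centring. Of 6 measured mitochondrial translation factors GUF1 was higher (16.7%, near the 12.7% of all genes), and their median was -0.34. GUF1 had 12 and 140 reads and a log2 ratio of 2.47 (interval 1.40 to 4.09). It stayed higher after GC centring, at 1.61, where 5.48% of all genes were higher and 5.98% lower. Lower there were MTIF2 at -1.13, GFM2 at -1.51 and, of the modification enzymes, DPH6 at -2.22. None of the 3 measured genes of selenocysteine insertion passed in either direction, and their median was -0.48.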

How the data were processed

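Total RNA of 1 Control and 1 TGS24 spheroid sample was read in pairs of 150 bases, per the labels' protocols. Per the submitters' processing notes, which give no role or order, featureCounts 1.5.2, STAR, Bowtie2 2.2.4, DESeq2, Trimmomatic and hg19 were used. The sources used here give neither strand handling nor multi-mapping. The deposited values are a normalized signal, gene counts divided by 1 size factor per library. The authors' deposited table of called genes adds a ratio (fold change) and its log2 value, copied only where named. Dividing by the value of 1 read (0.969 in Control, 0.506 in TGS24) gave whole reads for 99.93% and 99.94% of the values above 0, within a relative tolerance of 1e-06. Rows that repeated an identifier, stood out of order, were not whole or differed between tables (48, MAPK12 among them and 0 members) were left out.

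Reads were scaled with TMM factors (edgeR 4.0.16, R 4.3.3) over genes with at least 20 reads. Because 75.3% and 73.5% of the read counts above 0 were even, the 95% Clopper-Pearson intervals, conditional on the total, were computed on read pairs. Without replicates no count test across libraries was possible. GC content, exon overlap and 150-base windows came from GENCODE v29 on GRCh38, by Ensembl identifier, and start sites from RefSeq. GC values existed for 98.8% of tested genes. The ratio, interval and call steps were tested on simulated read pairs, drawn with counting error alone and with the library totals given. Scaling, GC centring and the recovery of reads were not part of that test. Alternatives were other size factors (DESeq2 1.42.0 among them), read minimums and prior counts, GC centring and intervals on reads. Members and lists were chosen with earlier results of these data known. Named were all members past the threshold, up to 4 of each role with the largest ratios, the one with the most reads, and others as an account of the members. Python 3.11.15 (scipy 1.17.1, numpy 2.4.6, matplotlib 3.10.9, pandas 2.3.3) did the rest.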

Additional observations from a re-analysis of the deposited data

How the results depend on the processing

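The 15 higher and 1 lower members kept their calls with the authors' size factors, median-of-ratios factors, library totals alone, TMM factors without small, mitochondrial and haemoglobin RNA genes, prior counts of 0.5 and 8, and intervals on reads. The member median ranged from 0.22 to 0.52 over all settings run. With no filter on low counts the median of all genes moved to 0.16, EIF1AX at 1.04 and EIF3M at 1.05 passed the threshold, and the median of the eIF4E inhibitors and transport group was 0.49. With at least 100 reads EIF3E was under the threshold at 0.87, EIF3K at -1.07 and EIF4A3 at -1.06 passed it, so 2 members and 410 of all genes were lower against 649, and the preinitiation group had a median of 0.68. EIF4A1 and EEF2K were too shallow to be tested there. GC centring left 8 members and 546 of all genes higher against 1277, with group medians of 0.63 for the preinitiation genes and 0.33 for the eIF4F genes. It sets each class median to 0 by construction. With the reads of pseudogene rows added, an alternative chosen after seeing the data, 0 members were lower. The cause of these differences was not tested. No member had other values in another deposited table, so that alternative was not run. No paired analysis was possible because each group held 1 library. Depth limits most the members under 100 reads, whose intervals often span more than 1 on the log2 scale, and nothing here measures the spread between replicates.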
